A study of Mus musculus with 26 samples.

Results

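The neutrophil granule proteins described here are encoded by 10 genes, Mpo, Elane, Prtn3, Ctsg, Ltf, Camp, Ngp, Lcn2, Mmp8 and Mmp9. They were selected by gene symbol, for the granule in which each protein is known to be stored, and not by a measured value. All 10 had the minimum of 4 probe sets set for a test and no filter on signal was set, out of 18341 genes tested. The series measured RNA from 26 mouse samples, titled ES1 to ES26, on exon arrays. The labels describe every sample as an embryoid body cell of an ES and EB set, read here as embryonic stem cells and the aggregates in which they differentiate, and give the mouse strain as the only grouping. The 14 arrays ES1 to ES14 are labelled 129S2/SvPas and the 12 arrays ES15 to ES26 are labelled C57BL/6. The sources used here give no treatment, time, genotype or age for any sample and no statement that the samples came from separate cultures, so the spread behind the p-values below is that between the deposited samples and could be technical alone. Strain label and title order run together, so the strain cannot be told apart from a batch that went unrecorded.

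Neutrophils build their granules in waves while they mature in the bone marrow. Primary (azurophil) granules form first, at the promyelocyte stage, and carry myeloperoxidase and serine proteases. Secondary (specific) granules follow in myelocytes and metamyelocytes and carry lactoferrin, cathelicidin, lipocalin and collagenase, and tertiary (gelatinase) granules come last. Because each gene is transcribed in its own window, the mix of granule transcripts in a population of neutrophil precursors is used as a measure of maturity. C/EBPα, PU.1, MYB and RUNX1 are known to drive the primary genes, and C/EBPε the secondary ones.

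The arrays labelled 129S2/SvPas did not form a single group for these genes. ES1 to ES12 held high values of 9 of the 10 genes, and ES13 and ES14 had values like those of the arrays labelled C57BL/6. The set ES1 to ES12 therefore goes against a single group of 14, and it was recognised from expression values of this series, the granule gene Ngp among them. Comparisons of ES1 to ES12 with ES13 to ES26 are given as values, with no test, and the tested comparison between strain labels is given with and without ES13 and ES14. Pluripotent cell markers, taken as a mean, also parted at this line. The mean gene value of 10 pluripotent cell markers, among them Pou5f1, Nanog and Zfp42, was 5.36 to 6.07 in ES1 to ES12, against 7.32 to 11.41 in ES13 to ES26. Singly, Klf4 (6.86 to 8.71 against 6.18 to 9.40) and Fgf4 (6.98 to 8.46 against 7.61 to 9.47) overlapped. Esrrb did so narrowly (up to 5.92 against 5.91 and above).

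Upstream sequences are shown for 5 genes because Mpo with Prtn3, Elane with Prtn3, and Ltf with Ngp ran together over ES1 to ES12. Mpo with Elane did not pass the test of pairs given below. RefSeq promoter windows (GRCm38.p6) were found for 9 of the 10 genes, and the 250 bases before each start were searched on both strands for 7 short motifs. The PU box core GAGGAA was present in 4 of 4 primary and 3 of 5 secondary windows, against 23.1% of 27025 promoters of the same length. The overlapping ETS-type core GGAAGT was present in 4 of 4 primary and 1 of 5 secondary windows, against 20.0% of promoters. In Mpo, Elane and Prtn3 both fell on the same stretch, GAGGAAGT, on the strand of the gene. The C/EBP-type motif TTNNGNAA was present in 0 of 4 primary and 4 of 5 secondary windows, against 36.9% of promoters. The MYB-type motif TAACNG was present in 2 of 4 primary and 1 of 5 secondary windows (19.8% of promoters). The RUNX-type motif TGTGGT was present in 1 primary and 0 secondary windows (14.2% of promoters). The GFI1-type motif AATCNNNGC was present in 0 primary and 1 secondary windows (9.0% of promoters). The TATA-type motif TATAAA was present in 1 primary and 0 secondary windows (13.0% of promoters). A match is a run of letters and not a binding site.

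The printed stretches run 5′ to 3′ on the strand of the gene and are given with positions counted back from the start at -1. Capitals mark the PU box, ETS-type and MYB-type matches on either strand in the 3 primary genes and the C/EBP-type matches in the 2 secondary genes. The Mpo stretch is chr11:87793534-87793633, plus strand, positions -250 to -151. The Elane stretch is chr10:79886192-79886311, plus strand, and the Prtn3 stretch is chr10:79879547-79879666, plus strand, both from -120 to -1. The Ltf stretch is chr9:111019172-111019291, plus strand, from -120 to -1, and the Ngp stretch is chr9:110419658-110419807, plus strand, from -150 to -1.
Mpo: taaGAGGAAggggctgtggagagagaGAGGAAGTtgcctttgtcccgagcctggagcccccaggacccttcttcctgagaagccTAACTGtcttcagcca
Elane: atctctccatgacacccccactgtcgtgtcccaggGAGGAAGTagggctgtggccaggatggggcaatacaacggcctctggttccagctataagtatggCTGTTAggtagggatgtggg
Prtn3: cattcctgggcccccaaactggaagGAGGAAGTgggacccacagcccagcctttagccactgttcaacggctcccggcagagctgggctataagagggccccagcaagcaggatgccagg
Ltf: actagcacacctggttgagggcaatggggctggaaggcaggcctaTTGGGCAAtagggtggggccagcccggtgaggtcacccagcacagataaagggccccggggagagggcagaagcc
Ngp: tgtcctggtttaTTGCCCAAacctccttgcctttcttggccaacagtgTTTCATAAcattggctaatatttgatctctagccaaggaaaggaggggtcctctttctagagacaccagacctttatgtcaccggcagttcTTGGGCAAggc

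The primary granule genes were high in each of ES1 to ES12. Their SDs over these arrays ranked 2414 (Mpo), 5186 (Prtn3), 5725 (Ctsg) and 6316 (Elane) of 18341 genes. Values are RMA log2 values, and the gene value is the median of the brighter 50% of the gene's probe sets, so values compare arrays for 1 gene and not 1 gene with another. Mpo, the heme enzyme that makes hypochlorous acid, lay between 11.97 (ES3) and 13.31 (ES7) in ES1 to ES12 with a median of 12.61. In ES13 to ES26 it lay between 4.83 and 7.77 with a median of 6.10, so the sets did not overlap and the gap between them was 4.21. Its 15 probe sets did not overlap either. Within ES1 to ES12 the values were 13.31 in ES7, 13.23 in ES5, 13.01 in ES6, 12.93 in ES1, 12.87 in ES4, 12.69 in ES10, 12.54 in ES12, 12.41 in ES2, 12.29 in ES8, 12.12 in ES9, 12.05 in ES11 and 11.97 in ES3. ES5, ES6 and ES7 were thus the highest arrays for Mpo.

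Elane, neutrophil elastase, lay between 12.13 (ES8) and 13.09 (ES7) with a median of 12.71, against 5.20 to 6.35 (median 5.75) in ES13 to ES26. Its probe sets carry the older symbol Ela2, which the RefSeq gene table lists as a synonym of 2 genes and which is read here as Elane. In 7 of its 8 probe sets the arrays did not overlap, and the eighth, which counts among the brighter 50%, had a difference of medians of 0.16. Prtn3, proteinase 3, is the neighbouring gene with no protein-coding gene between them, and lay between 12.08 (ES11) and 13.02 (ES5, median 12.20) against 6.33 to 7.51 (median 7.20). Ctsg, cathepsin G, lay between 11.97 (ES4) and 13.06 (ES7, median 12.78) against 5.28 to 6.92 (median 5.81), with ES9 next to ES4 at 11.98 and the other 10 arrays at 12.48 or above.

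The secondary granule genes were also high in ES1 to ES12. By gene value, 4 of the 5 had a higher SD over these arrays than any primary gene (0.75 to 1.23, against 0.33 to 0.46). Some dimmer probe sets, which do not enter the gene value, ranged more widely, so these SDs describe the gene values alone. A dimmer probe set of Mpo lay between 6.68 (ES9) and 9.81 (ES7). A dimmer probe set of Ltf lay between 3.56 (ES5) and 10.23 (ES4). Ltf, lactoferrin, which binds iron, had 22 probe sets and lay between 9.26 (ES6) and 13.06 (ES4) with a median of 11.46. That range of 3.80 log2 units is a 13.9-fold difference between arrays, and the SD of 1.23 ranked 64 of 18341 genes. The lowest 3 arrays were ES6, ES5 (9.28) and ES7 (10.46), the highest were ES4, ES9 (12.66) and ES1 (12.59), and ES13 to ES26 lay between 4.88 and 6.57. The remaining 6 arrays read 12.15 in ES3, 12.01 in ES10, 11.47 in ES11, 11.45 in ES12, 11.44 in ES2 and 11.15 in ES8. Camp, the mouse cathelicidin, lay between 9.21 (ES5) and 12.74 (ES4) with a median of 11.33, against 5.31 to 7.16, and its SD of 1.15 ranked 87. Its low arrays were ES5, ES6 (9.99), ES2 (10.08) and ES7 (10.32), and its high ones ES4, ES3 (12.39) and ES9 (12.34).

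Ngp, neutrophilic granule protein, lay between 11.02 (ES5) and 13.50 (ES4) with a median of 12.73 and an SD of 0.75, against 3.64 to 5.34 (median 4.72) in ES13 to ES26. Lcn2, the lipocalin that withholds iron carriers from bacteria, lay between 11.65 (ES5) and 13.06 (ES4) with a median of 12.87, against 5.07 to 6.37 (median 5.64). The other 9 arrays all lay between 12.74 and 13.06 once ES5, ES6 (12.19) and ES7 (12.21) were set aside. The spread of the Lcn2 gene value thus lay mostly in those 3 arrays. A dimmer probe set of Lcn2 still ran from 9.12 (ES2) to 11.23 (ES4) over the other 9 arrays. In every probe set of Camp, Ngp and Lcn2, and in 21 of 22 of Ltf, the lowest of the 12 arrays was ES5, ES6 or ES7.

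Mmp8, neutrophil collagenase, followed another order. It lay between 9.94 (ES4) and 12.66 (ES9) with a median of 12.21, against 2.88 to 5.00 in ES13 to ES26, and the next lowest of the 12 arrays was ES6 at 11.39. The value in ES4 minus that in ES6 was -1.45, while ES4 was the highest of the 12 arrays in Ltf, Camp, Ngp and Lcn2. ES4 was the lowest of the 12 arrays in 14 of 14 probe sets of Mmp8. ES4 also stood apart more widely. It was over 1 log2 unit below all of the other 11 arrays in 34 genes and over 1 above them in 60, against 0 to 14 and 0 to 30 genes for the other arrays.

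Mmp9, gelatinase B, the enzyme that gives tertiary granules their name, was the member whose sets overlapped. In ES1 to ES12 it lay between 5.48 (ES5) and 10.39 (ES9), with ES4 at 9.55, ES1 at 8.62 and a median of 7.47. Its SD of 1.42 ranked 32 of 18341 genes, the widest of the 10. The other arrays read 8.02 in ES3, 7.68 in ES10, 7.61 in ES2, 7.32 in ES12, 6.85 in ES8, 6.73 in ES11, 6.36 in ES7 and 6.23 in ES6. In ES13 to ES26 it lay between 6.23 and 9.89 with a median of 7.74, so 1 of the 12 arrays (ES9) was above all of ES13 to ES26.

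**Figure D1:**
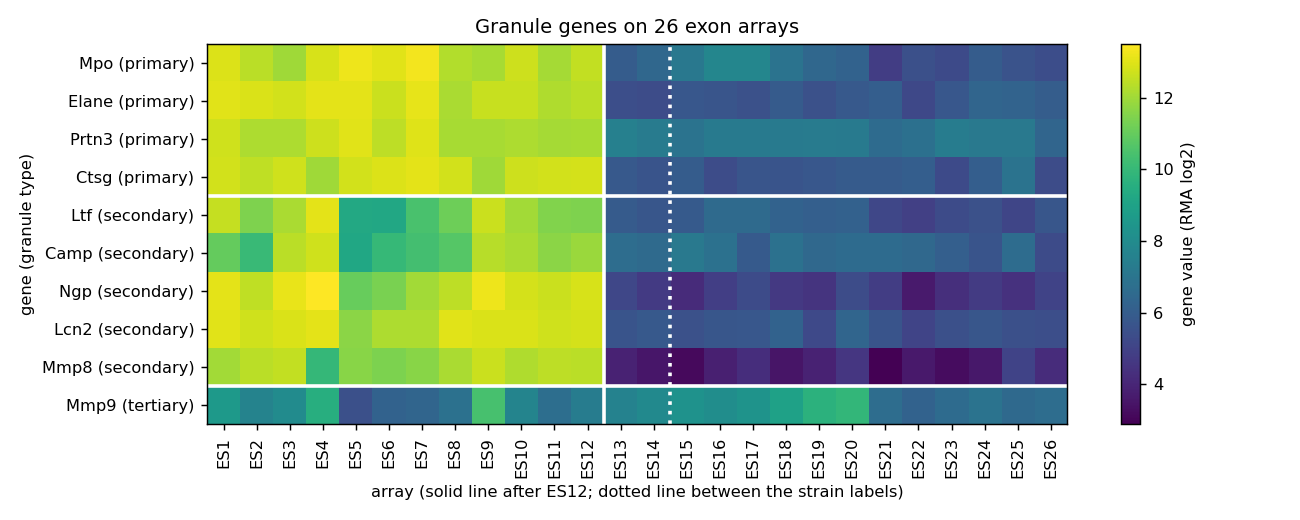
Gene values (RMA log2, colour) of the 10 granule genes (rows, by granule type) on the 26 arrays (columns), with a solid line after ES12 and a dotted line between the strain labels. Rows other than Mmp9 are bright in ES1 to ES12 and dark in ES13 to ES26; ES5 to ES7 are dimmer in the secondary genes and ES4 is dimmer in Mmp8.

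By strain label, 9 of the 10 genes were higher in the arrays labelled 129S2/SvPas and Mmp9 did not pass. Over all genes tested, 21.1% were higher in that label (limma, Benjamini-Hochberg adjusted p under 0.05 over all 18341 genes). Mmp8 had a mean of 10.78 ± 3.07 (SD, n = 14) in 129S2/SvPas and of 3.81 ± 0.62 (SD, n = 12) in C57BL/6. It differed by 6.96 ± 0.85 (SE, log2; limma adjusted p = 5.21e-07). Ngp differed by 6.81 ± 0.79 (SE, limma adjusted p = 2.73e-07). These were the fourth and the fifth highest differences of all genes tested. The 4 primary genes differed by 4.65 (Prtn3) to 5.84 (Elane), and the other 3 secondary genes by 4.17 (Camp), 4.85 (Ltf) and 6.05 (Lcn2), with adjusted p between 1.44e-07 and 1.54e-06. With the brighter 50% ranked in the C57BL/6 arrays alone, the difference of Elane was 3.01. Mmp9 had a mean of 7.60 ± 1.31 (SD, n = 14) in 129S2/SvPas and of 7.74 ± 1.31 (SD, n = 12) in C57BL/6. Its difference was -0.14 ± 0.49 (SE, limma adjusted p = 0.843), and the sign turned when all probe sets were used, by their median (0.08) or by their mean (0.20).

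Both sets of arrays left out next were known from the values of these genes, so the results are a description and the direction without ES13 and ES14 was fixed by the choice. Without ES13 and ES14 the differences of the 9 genes were 4.82 (Camp) to 8.14 (Mmp8), and 25.2% of all genes were called higher. Without ES1 to ES12, which sets ES13 and ES14 against the arrays labelled C57BL/6, 0 of the 10 passed by limma and 0 had an unadjusted p under 0.05, where 0.00545% of all genes passed and 1814 had an unadjusted p under 0.05. There the differences lay between -0.45 (Elane) and 0.36 (Prtn3). In 9 of the 10 genes the lowest of ES1 to ES12 was above the highest of ES13 to ES26, and 7.76% of all genes did the same. By single probe set this held in 19 of 22 for Ltf, 4 of 5 for Camp, and 7 of 8 for both Prtn3 and Elane. It held in every probe set of Mpo, Ctsg, Ngp, Lcn2 and Mmp8. In a bulk sample, fewer cells of a type and less RNA per cell cannot be told apart.

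**Figure D2:**
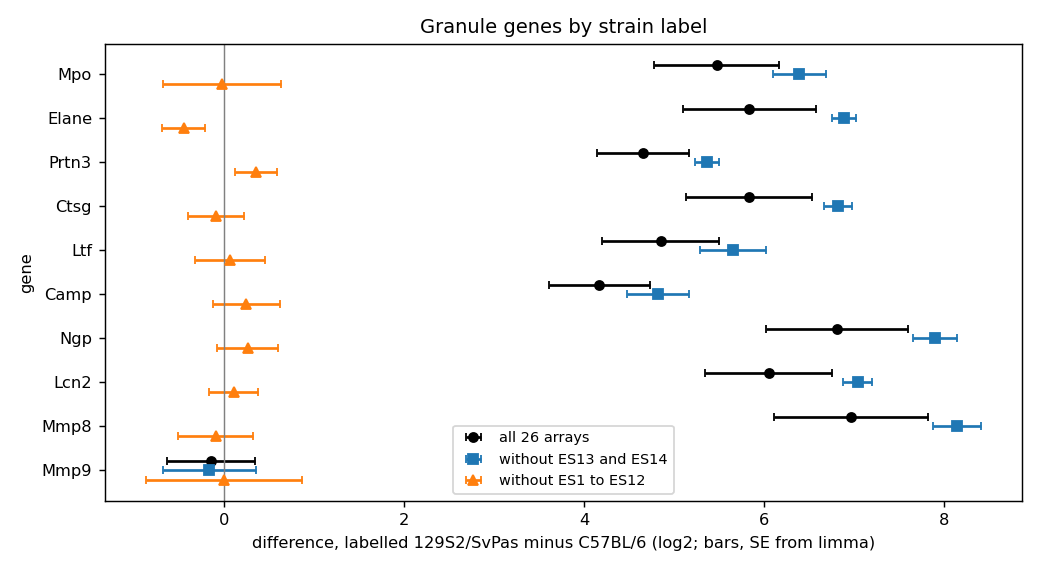
Difference between strain labels for each gene (x axis, 129S2/SvPas minus C57BL/6, log2; bars, SE from limma) with all 26 arrays, without ES13 and ES14, and without ES1 to ES12. Differences of the 9 genes lie between 4.17 and 6.96 with all arrays and between -0.45 and 0.36 without ES1 to ES12, and those of Mmp9 lie near 0 throughout.

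Within ES1 to ES12 the arrays differed in which genes stood above their medians. In ES5 and ES7 all 4 primary genes were above their median over the 12 arrays and 0 of the 5 secondary genes were. ES6 had 3 primary genes above the median and 0 secondary genes. ES9 was the reverse, with 0 primary and all 5 secondary genes above the median, and ES3 had 1 and 5. ES10 had 2 and 5, and ES11 and ES12 each had 1 and 3. In ES2 (1 and 1) and ES8 (0 and 1) both sets were mostly below their medians. ES1 had 4 and 3. ES4 had 3 and 4, with Ctsg and Mmp8 below their medians. The numbers of the arrays carry no known order.

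**Figure D3:**
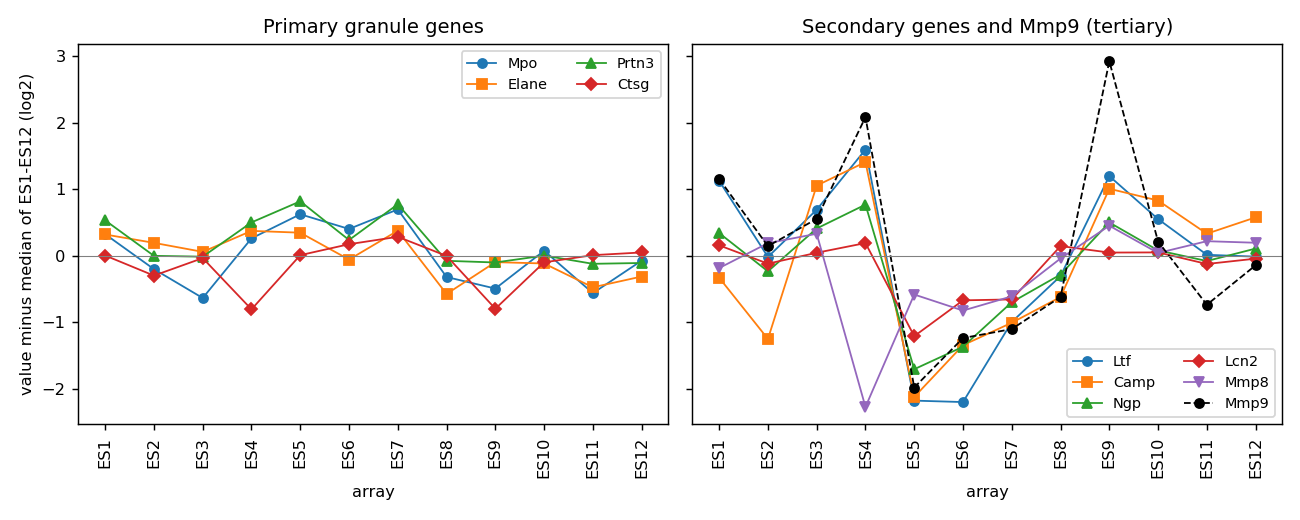
Value of each gene minus its own median over ES1 to ES12 (y axis, log2) in each of the 12 arrays, for the primary genes (left) and the secondary genes and Mmp9 (right); lines only join the points of 1 gene. The secondary genes and Mmp9 lie below 0 in ES5 to ES7, Mmp8 drops in ES4, and the primary genes stay within 1 log2 unit of their medians.

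All 45 pairs of members were correlated over the 12 arrays (two-sided permutation p from 100000 resamples, adjusted over the 45 pairs). Of these, 12 pairs passed with a positive r and 1 with a negative r. Ltf and Ngp were the closest pair, with r = 0.98 (permutation p = 1e-05, the smallest these resamples can give, adjusted p = 0.00045) and rho = 0.97 (permutation p = 2e-05), and r = 0.96 without ES5 and ES6, the 2 arrays farthest from the median of Ltf. Among all genes with a range of at least 1 log2 unit over ES1 to ES12, Ngp ranked 1 of 8280 by its r with Ltf. All 6 pairs among Ltf, Camp, Ngp and Lcn2 passed, with r between 0.77 and 0.98. The pair of Camp and Lcn2 did not pass without ES5 (r = 0.65, adjusted p = 0.0791).

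Mmp9 ran with the same 4 genes. It had r = 0.89 with Ltf (permutation p = 2e-04, adjusted p = 0.0015; rho = 0.94, permutation p = 4e-05), 0.85 with Ngp, 0.74 with Camp and 0.73 with Lcn2. Without ES5 and ES6 its r with Ltf was 0.90. Leaving out ES5 or ES6 ended the calls of the pairs with Camp (permutation adjusted p = 0.0791 and 0.0523) and Lcn2 (0.0791 and 0.0625), as leaving out ES7 did for Lcn2 (0.0575).

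Among the primary genes, Mpo and Prtn3 had r = 0.88 (permutation p = 6e-05, adjusted p = 9e-04; rho = 0.85, permutation p = 0.00073), and 0.87 without ES3 and ES7. Elane and Prtn3 had r = 0.80 (permutation p = 0.00196, adjusted p = 0.00802; rho = 0.84, permutation p = 0.00104), and 0.84 without ES8 and ES11. Mpo and Elane had r = 0.65 and did not pass (adjusted p = 0.0672 by permutation). Ctsg had no pair with another primary gene past the threshold, its r lying between -0.15 and 0.31, and formed the 1 negative pair past it, with Mmp9 (r = -0.84, permutation p = 0.00145, adjusted p = 0.00725; rho = -0.80, permutation p = 0.00304). Without ES4 and ES9, where Ctsg was lowest and Mmp9 highest, that r was -0.46, so its size rests in part on those 2 arrays together. With only 1 of them left out the pair still passed. Its r was -0.80 without ES4 (permutation adjusted p = 0.0208) and -0.73 without ES9 (0.0348).

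Pairs of a primary with a secondary gene had a median r of -0.50, and 19 of 20 were below 0. Without ES5 and ES7, the 2 arrays farthest from the median of Prtn3, its r with Ltf went from -0.35 to 0.23. With Ngp it went from -0.44 to 0.14, with Lcn2 from -0.60 to 0.09 and with Camp from -0.48 to -0.04. With Mmp8 it was -0.75. The pairs of Mpo, Elane and Ctsg, each without the 2 arrays farthest from that gene's median, all stayed below 0. By r, 0 of the 20 passed after adjustment and 6 had an unadjusted permutation p under 0.05. By rho, 3 of the 20 passed, Mpo with Mmp8 (rho = -0.84, permutation adjusted p = 0.00613), Prtn3 with Mmp8 (-0.78, 0.0151) and Ctsg with Ltf (-0.73, 0.0285). ES4 decided the count by r. Without ES4, 8 of the 20 passed with a negative r and all 20 lay below 0, led by Mpo with Mmp8 (r = -0.88, permutation p = 0.00038, adjusted p = 0.0036), against r = -0.61 (adjusted p = 0.0596) with all 12 arrays. By rho the count did not rise, with 2 of the 20 past the threshold without ES4, Mpo with Mmp8 (permutation adjusted p = 0.00675) and Prtn3 with Mmp8 (0.0217). Without ES1, 3 of the 20 passed.

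ES4 also decided the place of Mmp8. With all 12 arrays Mmp8 had r between 0.03 and 0.17 with the other 4 secondary genes and of -0.03 with Mmp9, and no pair passed. Without ES4 it had r = 0.83 with Ltf (permutation p = 0.00266, adjusted p = 0.0109), 0.85 with Ngp, 0.78 with Camp, 0.77 with Lcn2 and 0.70 with Mmp9, all past the threshold. By rho without ES4, Mmp8 passed with Ltf, Ngp and Camp. It did not pass by rho with Lcn2 (rho = 0.36, permutation adjusted p = 0.323) or Mmp9 (0.65, 0.0808). By r, 26 of 45 pairs passed without ES4, against 13 with it, and between 10 and 16 with any other array left out.

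**Figure D4:**
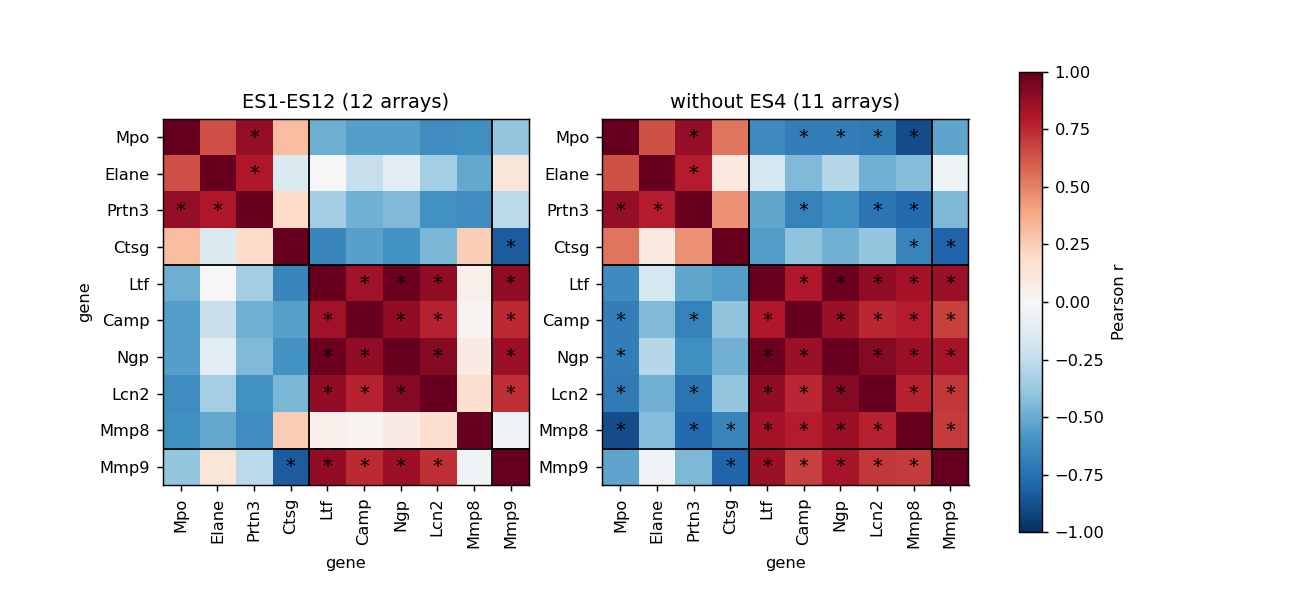
Pearson r (colour) between the 10 genes over ES1 to ES12 (left) and without ES4 (right), with an asterisk on pairs with adjusted permutation p under 0.05 and lines between primary, secondary and tertiary genes. By r without ES4, Mmp8 joins the other secondary genes, and 8 primary-secondary pairs pass with a negative r, against 0 with ES4.

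Markers of other blood cells moved within ES1 to ES12 as well. The mean gene value of 5 tested eosinophil markers, which include eosinophil peroxidase (Epx) and major basic protein (Prg2), lay between 4.93 in ES5 and 8.33 in ES9, the arrays at the 2 ends of Mmp9. Epx ran from 6.01 in ES5 to 12.16 in ES9, and Prg2 from 6.40 to 12.80 in the same arrays. Prg3 ran from 5.00 in ES2 to 8.07 in ES9. Il5ra (3.55 to 4.61) and Ccr3 (3.06 to 4.42) moved less. Both overlapped their values in ES13 to ES26 (3.27 to 4.22 and 2.53 to 4.27). The mean of 10 mast cell and basophil markers lay between 7.30 in ES5 and 9.33 in ES12, and that of 10 monocyte and macrophage markers between 7.81 in ES6 and 8.77 in ES9. The mean of 7 lymphocyte markers stayed between 5.94 and 6.37. In ES13 to ES26 these 4 lists lay at 4.31 to 4.97, 5.04 to 5.44, 5.65 to 7.66 and 5.31 to 5.89. By strain label 4 of 5, 9 of 10, 6 of 10 and 3 of 7 were higher and 0 lower, where 21.1% of all genes were higher and 22.1% lower, and their part in the granule gene values was not tested.

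Outside ES1 to ES12, Mmp9 and Mpo had the widest ranges of the 10 genes. Mmp9 was 8.29 in ES15, 8.11 in ES16, 8.33 in ES17, 8.95 in ES18, 9.69 in ES19 and 9.89 in ES20, and between 6.23 and 6.93 in ES21 to ES26. The 2 highest arrays, ES19 and ES20, held the maximum of ES13 to ES26 in 17 of its 18 probe sets. Beside it, the mean of 8 fibroblast markers, collagens among them, was 8.06 in ES15 and 11.09 in ES20, and that of the monocyte and macrophage markers 6.07 and 7.66, and their part was not tested. The fibroblast mean in ES25 and ES26, where Mmp9 was 6.50 and 6.68, was 8.82 and 8.41.

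**Figure D5:**
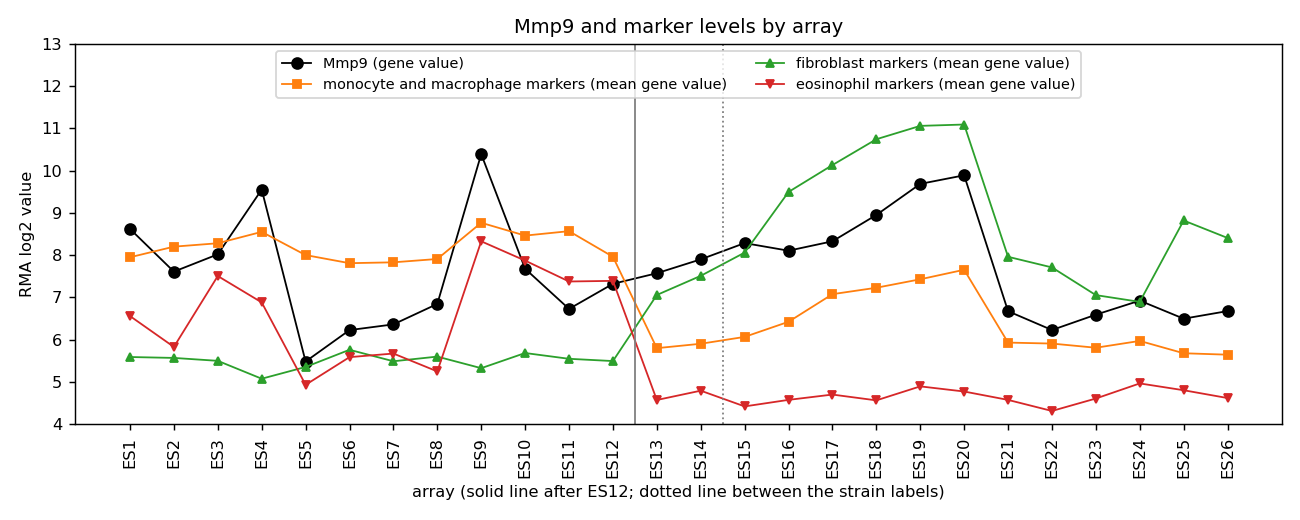
Mmp9 gene value and the mean gene value of 3 marker lists (y axis, RMA log2) on the 26 arrays, with a solid line after ES12 and a dotted line between the strain labels. In ES1 to ES12 the peaks of Mmp9 are ES4 and ES9, and in ES15 to ES20 it runs from 8.11 to 9.89 beside the fibroblast and the monocyte and macrophage markers.

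Mpo was 7.13 in ES15, 7.75 in ES16, 7.77 in ES17 and 6.93 in ES18, and between 4.83 and 5.97 in ES21 to ES26. In 12 of its 15 probe sets the highest of ES13 to ES26 was one of ES15 to ES18. The mean of 6 erythroid markers, embryonic globins among them, lay between 10.87 and 11.78 in those 4 arrays and between 5.30 and 5.94 in ES21 to ES26. It was also high in ES14 (9.36), ES19 (10.06) and ES20 (9.42), where Mpo was 6.44, 6.45 and 6.23. The relation of Mpo to these markers was not tested. The other primary genes did not share this order, Elane being highest in ES24, Prtn3 in ES13 and Ctsg in ES25.

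Other granule genes, listed by role, mostly followed the members. Of 14 tested further primary granule genes, 10 were higher in the arrays labelled 129S2/SvPas and 0 lower. Over all genes, 21.1% were higher and 22.1% lower. The median difference of the 14 genes was 1.50, against a median of 0.00 over all genes. The largest were the leukocyte cystatin Cst7 (5.41 ± 0.70, SE), lysozyme Lyz2 (5.38 ± 0.98) and its paralog Lyz1 (4.19 ± 0.62), and Ctsc (3.79 ± 0.59), the peptidase that activates the granule serine proteases. With the mean over all probe sets Lyz1 differed by 2.55. Bpi, the bactericidal protein, did not pass (-0.03). Of 19 further secondary and tertiary granule genes, 16 were higher and 1 lower, where 21.1% of all genes were higher and 22.1% lower. Cybb, the catalytic subunit of the phagocyte oxidase, led with 4.99 ± 0.87 (SE), followed by the surface protein Cd177 (4.83 ± 0.62), haptoglobin Hp (4.67 ± 0.58) and the integrin Itgam (4.59 ± 0.76). With the brighter 50% ranked in the C57BL/6 arrays, Hp differed by 2.97. Cd177 ranged from 10.59 in ES5 to 13.04 in ES4, the same lowest and highest arrays as Ngp and Lcn2. Of other metalloproteases in this list, Mmp25 did not pass (0.55) and Adam8 was higher (3.59 ± 0.60, SE).

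Genes of mature neutrophils and secretory vesicles gave 12 of 15 higher and 3 lower, against 21.1% and 22.1% of all genes, so the share that was lower was near that over all genes. The receptor Trem1 (5.31 ± 0.66, SE), the calcium-binding protein S100a8 (5.01 ± 0.61), the Fc receptor Fcgr3 (4.35 ± 0.74) and the complement receptor C5ar1 (4.17 ± 0.72) led. When all probe sets were used, C5ar1 differed by 1.53 (their median) or 2.65 (their mean). The 3 lower genes were Mme, Alpl and Ptgs2. Mme lay between 3.86 and 5.26 in ES1 to ES12, against 6.43 to 10.43 in ES13 to ES26. Alpl (5.80 to 6.49 against 5.90 to 9.62) and Ptgs2 (6.57 to 9.84 against 7.02 to 11.67) overlapped. Among ES1 to ES12 the list mean ran from 8.57 in ES5 to 10.04 in ES9.

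Inhibitors of granule proteases went both ways. Over all genes, 21.1% were higher and 22.1% lower. Of 14 inhibitors tested, 5 were higher, led by Serpinb1a (5.00 ± 0.77, SE), which inhibits elastase, proteinase 3 and cathepsin G, Serpina3g (4.95 ± 0.72) and the leukocyte protease inhibitor Slpi (3.92 ± 0.48). Serpina3g differed by 0.816 with the brighter 50% ranked in the C57BL/6 arrays, and Slpi by 2.53 with the mean over all probe sets. A further 6 were lower, among them the metalloprotease inhibitors Timp1 (-4.05 ± 0.42, SE), Timp2 and Timp3. Timp1, an inhibitor that binds Mmp9, was at 4.20 to 6.14 in ES1 to ES12 against 6.65 to 11.42 in ES13 to ES26, so the sets did not overlap.

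The next 3 lists are read against the 21.1% of all genes that were higher and the 22.1% that were lower. Of 19 transcription factors of granulopoiesis, 11 were higher and 1 lower. Myb, which acts at the promyelocyte stage, differed by 3.65 ± 0.36 (SE) and lay between 9.60 in ES9 and 11.19 in ES5. Spi1, which encodes PU.1, differed by 3.04 ± 0.44, and Gfi1 by 2.52 ± 0.29. Cebpe, known as the driver of secondary granule genes, differed by 2.26 ± 0.32 and lay between 10.09 (ES5) and 11.23 (ES1). With the median over all probe sets Cebpe differed by 3.90. Of 13 growth factor receptor and progenitor genes, 10 were higher, led by Ms4a3 (7.08 ± 0.78), Cd33, Csf2rb and Cxcr4, while Kit, Flt3 and Cd34 did not pass. Ms4a3, a gene of granulocyte and monocyte progenitors, lay between 11.94 in ES9 and 13.07 in ES5, the same end arrays as Myb. Of 18 granule trafficking and exocytosis genes, 11 were higher and 1 lower, with the vesicle GTPase Rab27a (3.02 ± 0.47), the Chediak-Higashi gene Lyst (2.33 ± 0.36), Rab3d and the priming factor Unc13d (2.13 ± 0.31) in front. Without ES1 to ES12, 0 genes of any of these 7 lists passed by limma in either direction. In that fit 0.00545% of all genes passed, so the 0 is no result about these lists.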

How the data were processed

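RNA of 26 samples was measured on the Affymetrix Mouse Exon 1.0 ST array after 2 rounds of amplification, per the labels' protocols. The deposited values are RMA log2 values per probe set made with Affymetrix Expression Console (extended exon level), per the labels. The program's version and the genome build are not given in the sources used here. The base of 2 is the one RMA uses and fits the values, which ran from 0.831 to 15.6. RMA compresses differences at low signal, and the values carry no detection call. The table held 631748 probe sets, of which 306069 had 1 gene symbol in the platform annotation, 6067 several and 319612 none. The array medians lay between 5.32 and 5.51, and no pair of arrays was identical. Precision is limited by how many arrays there were.

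A gene value was the median of the brighter 50% of its probe sets by mean over 26 arrays. The 18341 genes represented by 4 or more probe sets were compared by strain label with limma 3.58.1 in R 4.3.3 (lmFit, eBayes with a trend, two-sided, Benjamini-Hochberg adjustment over all genes, threshold 0.05), a step tested on simulated data. All 10 members, the 4 or fewer genes of each list that differed most among those past the threshold, and the 5 genes closest to each of Mpo, Ltf and Mmp9 over ES1 to ES12 are named; a few others were named after their values were seen. Members and lists were chosen with earlier results of these data known.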

Additional observations from a re-analysis of the deposited data

How the results depend on the processing

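The 9 genes that passed kept their direction and passed under all 11 alternatives that keep ES1 to ES12, one of which leaves out the low arrays ES13 and ES14, with adjusted p up to 0.00022 (Camp). All 9 stayed without overlap between ES1 to ES12 and ES13 to ES26 under the 4 alternatives tried for that count. The number of genes called, 7931 (3876 higher, 4055 lower), was 4841 without the dimmer 50% of genes (2077 lower), 1094 with a minimum difference of 1 log2 unit (511 higher, 583 lower) and 1 without ES1 to ES12 (1 higher, 0 lower), where 0 of the 10 members passed; these settings test fewer genes, ask for more or drop 12 arrays. When arrays were centred on their median gene, the median difference over all genes was 0.13 in place of 0.00, and 66.0% of calls were higher in place of 48.9%. Using all probe sets turned the sign of Mmp9, not called, to 0.081 (by the median) and 0.20 (by the mean). The pairs of members past the threshold numbered 13 and ranged from 10 to 26 with 1 array left out (leave-one-out), 26 being without ES4; the cause was not tested. Without ES1 to ES12, some differences turned sign and none of them passed: Mpo -0.028, Elane -0.45, Ctsg -0.089, Mmp8 -0.095, Adgre1 -1.68, C5ar1 -1.22, Ccr2 -0.24, Cd177 -0.21, Cd33 -0.68, Cd79b -0.26, Cebpe -0.33, Csf1r -1.36, Csf2rb -1.31, Cst7 -0.38, Cybb -1.47, Epx -0.078, Fcgr3 -1.44, Hdc -0.11, Hp -0.042, Il7r -0.64, Itgam -1.35, Lyst -0.43, Lyz1 -0.56, Lyz2 -1.68, Mcpt8 -0.29, Mrc1 -0.064, Prg2 -0.20, Rab27a -0.84, Rab3d -0.83, S100a8 -0.10, Serpina3g -0.38, Serpinb1a -1.44, Spi1 -0.39, Trem1 -0.14, Hbb-bh1 1.29 and Tdgf1 1.27. No paired analysis was possible because the labels give no replicate numbers shared between the strain labels. RMA values hold no detection call, so low levels in ES13 to ES26 were not told apart from background.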

Other observations

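The genes whose values were closest to 3 members over ES1 to ES12 were listed by Pearson r among 8273 genes with a range of at least 1 log2 unit, the 10 granule genes left out, as a description with no test; the 12 arrays share their label. Closest to Mpo were the mitotic helicase Ercc6l (r = 0.93), the replication factor Mcm10 (0.92), the RNA 3′ end factor Cstf2 (0.91), the chromatin remodeller Chd1l (0.91) and the dUTPase gene Dut (0.90). Mcm10 lay between 9.13 in ES11 and 10.35 in ES5. With the median over all probe sets, r of Dut with Mpo was 0.35. Closest to Ltf were Syne1 (0.97), the integrin gene Itgb2l (0.97), Map3k9 (0.96), Cd177 (0.96) and the phosphodiesterase Pde2a (0.96), and in all 5 the lowest array was ES5 and the highest ES4. Itgb2l ran from 8.18 to 11.75 over ES1 to ES12 and lay between 5.60 and 6.50 in ES13 to ES26. Closest to Mmp9 were the sialyltransferase St3gal2 (0.96), Fry (0.94), 9830107B12Rik (0.94), Crispld2 (0.93) and Klf5 (0.93), whose highest array was ES4 or ES9.

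Camp, Ngp and Ltf lie in this order on mouse chromosome 9 in the RefSeq gene table (GRCm38.p6), with 8 protein-coding genes between Camp and Ngp and 20 between Ngp and Ltf. Of the 25 tested genes between them, 7 were higher in 129S2/SvPas and 9 were lower (limma), where 21.1% and 22.1% of all genes were. In 2 of them, against 7.76% of all genes, the lowest of ES1 to ES12 was above the highest of ES13 to ES26. The pluripotency gene Tdgf1, close to Ltf, differed by -4.11 ± 0.80 (SE, limma), against 4.85 for Ltf. On chromosome 10, Cfd next to Elane had values of 6.76 to 7.62 in ES1 to ES12 that overlapped those of ES13 to ES26 (7.07 to 7.95).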
